A study of Mus musculus with 66 samples.

Results

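RNA of oocytes of newborn mice was compared between postnatal day 3 (P3) and postnatal day 1 (P1), the days over which germ cell nests break up and primordial follicles form. Each stage had 3 libraries, and the comparison took every gene whose mean was 1 RPM (reads per 1000000 reads in genes) or more in either group, which kept 13072 of the 24062 genes in the table. These 6 libraries are part of 66 in the series, which follows mouse germ cells and oocytes in the ovary and in culture from embryonic stem cells. All 6 came from ovaries of the cross labelled C57BL/6 x B6D2F1 that carry a stella-ECFP (SC) reporter, a fluorescent marker of germ cells, and the cells are labelled oocytes at both ages. No treatment or deletion is given for either group, so age is the labelled difference between them. The labels do not say how many animals or cells entered each library. The limma p-values and standard errors for P3 against P1 rest on replicate scatter pooled over 27 in vivo libraries in 9 groups, not on these 6 alone. Whether that scatter reflects differences between animals is not known.

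Around birth the oocytes of the mouse lie in nests of connected cells, in the last part of meiotic prophase. Over the next days the nests break up, many oocytes are lost, and the survivors arrest in meiosis inside a single flat layer of pregranulosa cells, which makes a primordial follicle. Oocyte transcription factors such as FIGLA, NOBOX, SOHLH1 and LHX8 are needed for this step, KIT signalling through PI3K and the factor FOXO3 governs whether a follicle stays dormant, and proteins of the egg coat and of the maternal store are made as the oocyte enters growth.

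Depth was close to even: in units of 1000000 reads in genes it was 16.2 to 19.6 at P1 and 14.3 to 18.2 at P3, so that 3 reads corresponded to 0.153 to 0.21 RPM. The replicates were correlated on the log2 scale at Pearson r between 0.992 and 0.996 across genes, and all pairs differed by more than sampling noise. Summed over the germ cell and oocyte markers, the level was 7142 to 7422 RPM at P1 and 7894 to 8264 RPM at P3. Markers of other cells were low: the 24 granulosa genes summed to 83.1 to 91.6 RPM at P1 and 88.5 to 96.9 RPM at P3, of which Fam19a1 alone gave 23.1 to 61.9 RPM. Fshr, the receptor for follicle-stimulating hormone on granulosa cells, was listed at 0 in 5 of the 6 libraries, and the theca enzyme gene Cyp17a1 at 0 in all 6. The 16 stroma and theca markers summed to 20.1 to 31.9 RPM at P1 and 11.1 to 28.4 RPM at P3, and the 14 blood and immune markers to 3.95 to 12.8 RPM and 0.910 to 4.04 RPM.

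The stretches before the start of the leading genes are shown first because these genes moved most and in opposite directions. They are the 250 bases before a RefSeq transcription start (build GRCm38.p6) of 6 genes named below, printed 5′ to 3′ on the strand of the gene. The genes are the 3 that rose most and the 3 that fell most of those with an entry. Capitals mark matches on either strand to TAATTG and TAATTA (NOBOX), TGATTG (LHX8), CACGTG (an E-box bound by basic helix-loop-helix factors), GCGGGAA (E2F) or TGACGT (the core of a cyclic AMP response element). None of these motifs overlapped another in the stretches shown. Pgm5 lies at chr19:24861843-24862092 on the minus strand, Khdc1b at chr1:21383306-21383555 on the plus strand and Pkd1l3 at chr8:109613984-109614233 on the plus strand. Tex101 lies at chr7:24672051-24672300, Taf7l at chrX:134476491-134476740 and Nxf2 at chrX:134964755-134965004, all on the minus strand. Positions are counted from the start that each stretch precedes. For Pkd1l3 and Taf7l the annotated gene begins further upstream, at 109614190 and 134476505, so both stretches reach into it.
Pgm5: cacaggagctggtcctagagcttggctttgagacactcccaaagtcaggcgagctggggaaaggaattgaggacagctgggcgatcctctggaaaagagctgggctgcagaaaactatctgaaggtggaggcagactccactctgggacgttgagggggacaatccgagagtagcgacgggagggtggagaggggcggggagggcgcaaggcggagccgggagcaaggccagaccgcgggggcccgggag
Khdc1b: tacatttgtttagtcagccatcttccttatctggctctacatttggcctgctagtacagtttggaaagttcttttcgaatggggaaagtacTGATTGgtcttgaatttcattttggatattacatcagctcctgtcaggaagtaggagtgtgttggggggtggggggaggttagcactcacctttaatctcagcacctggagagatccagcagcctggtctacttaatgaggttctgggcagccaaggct
Pkd1l3: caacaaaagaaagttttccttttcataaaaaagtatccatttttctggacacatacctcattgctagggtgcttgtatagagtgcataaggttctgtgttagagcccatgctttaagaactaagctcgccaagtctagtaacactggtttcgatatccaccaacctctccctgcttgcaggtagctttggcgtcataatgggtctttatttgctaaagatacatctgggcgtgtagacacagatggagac
Tex101: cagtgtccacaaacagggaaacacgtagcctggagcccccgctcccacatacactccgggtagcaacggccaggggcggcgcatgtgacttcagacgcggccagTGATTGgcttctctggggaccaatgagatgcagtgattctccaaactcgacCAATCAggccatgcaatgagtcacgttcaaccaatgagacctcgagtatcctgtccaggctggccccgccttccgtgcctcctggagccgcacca
Taf7l: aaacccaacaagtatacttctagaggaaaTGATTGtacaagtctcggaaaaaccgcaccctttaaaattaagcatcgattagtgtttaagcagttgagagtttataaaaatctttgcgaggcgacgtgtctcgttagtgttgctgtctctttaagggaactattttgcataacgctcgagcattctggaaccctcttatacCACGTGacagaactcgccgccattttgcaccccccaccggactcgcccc
Nxf2: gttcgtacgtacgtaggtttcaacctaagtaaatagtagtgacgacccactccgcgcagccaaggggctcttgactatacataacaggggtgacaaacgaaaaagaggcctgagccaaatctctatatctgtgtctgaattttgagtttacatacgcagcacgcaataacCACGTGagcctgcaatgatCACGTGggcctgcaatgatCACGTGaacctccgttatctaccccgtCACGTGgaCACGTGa
The 3 rising genes held 13 (Pgm5), 1 (Khdc1b) and 4 (Pkd1l3) CpG dinucleotides in these 250 bases, and the 3 falling genes held 14 (Tex101), 14 (Taf7l) and 16 (Nxf2). TGATTG was present in Khdc1b, at -159 from the start, in Tex101, at -146 and, on the other strand, at -95, and in Taf7l, at -221. Over the 27025 stretches of this length in the table, 13% held it. CACGTG was found once in Taf7l, at -49, and 5 times in Nxf2, at -80, -61, -42, -15 and -7, and 6.05% of all stretches held it at least once. TAATTG (7.34% of all stretches), TAATTA (4.9%), GCGGGAA (3.84%) and TGACGT (6.56%) matched in none of the 6. The RNA data do not show which start was used.

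At an adjusted p threshold of 0.05 in limma, 2390 genes (18.3% of those tested) changed between P1 and P3, 1169 higher at P3 (8.94%) and 1221 lower (9.34%). Changes are on the log2(RPM + 1) scale, which understates those of low genes. Most were small: 84.5% of genes moved by less than 0.5, the median change was 0.66 among the higher genes and -0.43 among the lower ones, and the median over all genes was -0.01. Only 304 genes (2.33%) changed by 1 or more, 200 of them upward and 104 downward. The values of the 3 P1 and the 3 P3 libraries did not overlap in 5062 genes (38.7%), and 2225 of the 2390 called genes were among them. With libraries rescaled by median-of-ratios factors, 1234 genes were higher (9.44%) and 1060 lower (8.11%), and edgeR on the recovered reads called 2030 genes (15.5%), 1168 higher (8.94%) and 862 lower (6.59%).

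**Figure D1:**
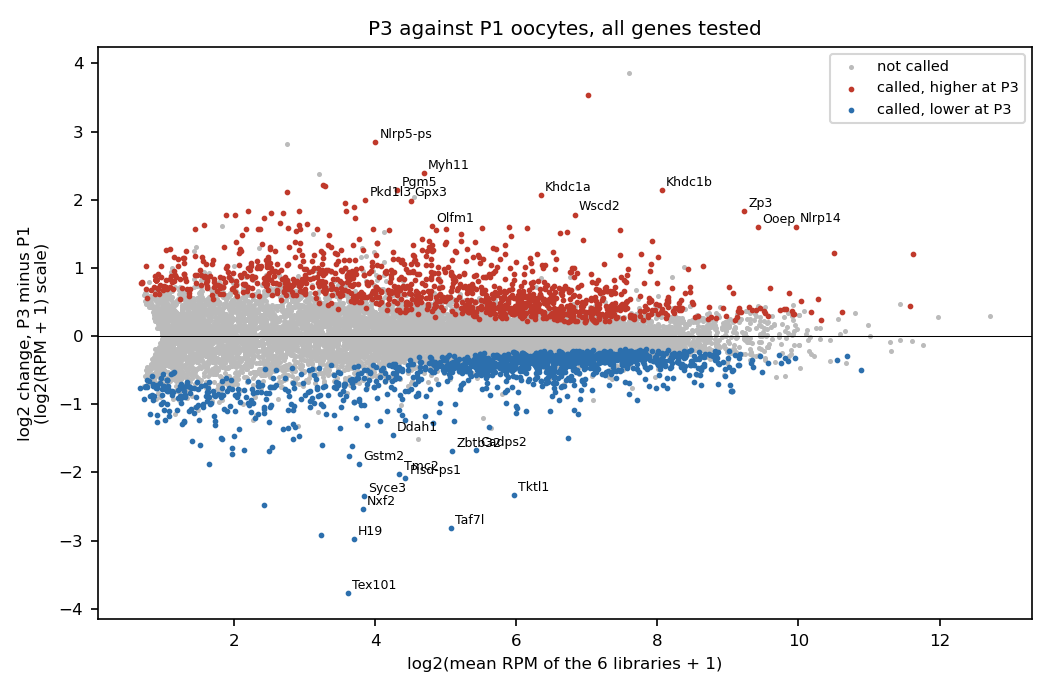
Log2 change from P1 to P3 (vertical axis, log2(RPM + 1) scale) against log2 of the mean RPM of the 6 libraries + 1 (horizontal axis), 1 point per gene, coloured by whether the gene was called higher or lower. Of the called genes, 200 lie at 1 or above and 104 at -1 or below, and 84.5% of all genes tested lie within 0.5 of 0.

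The 3 P1 libraries were not equally far from P3. P1 replicate 1 had the lowest of the P1 values in 912 of the 1169 genes higher at P3 and the highest in 919 of the 1221 lower ones, whereas P1 replicate 2 had the highest P1 value in 771 of the higher genes and the lowest in 821 of the lower ones. On an axis drawn after seeing the data from the mean of E18.5 (position 0) to the mean of small oocytes at P4 (position 1), the P1 libraries stood at 0.492, 0.747 and 0.664 and the P3 libraries at 0.889, 0.970 and 0.954. The 3 E18.5 libraries stood at 0.0019, 0.061 and -0.063. Every P1 library thus lay between E18.5 and P3, with P1 replicate 1 nearest to E18.5. Without P1 replicate 1 the count of called genes was 923 (448 higher, 475 lower), without P3 replicate 2 it was 1293 and without P3 replicate 3 it was 1592, while without P1 replicate 2 it was 2514. No gene called with all libraries was called in the opposite direction in any of these fits, and 781 genes were called in all 6 fits that leave out 1 library.

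**Figure D2:**
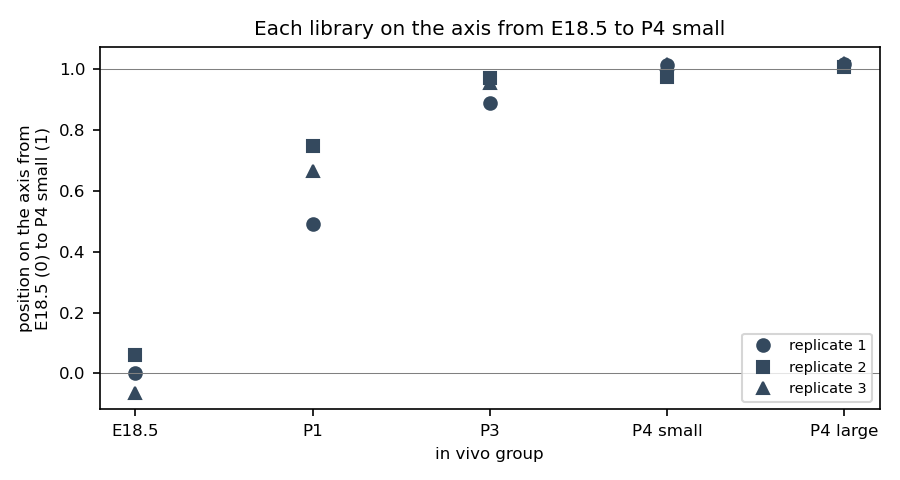
Position of each library (points, 3 per group) on the axis from the mean of E18.5 (0) to the mean of P4 small oocytes (1), by in vivo group. P1 libraries lie between 0.492 and 0.747 and P3 libraries between 0.889 and 0.970, and the 2 groups do not overlap.

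The 12 largest rises, among called genes with a higher group mean of 20 RPM or more and no overlap between the groups and passing over predicted genes, included egg coat and maternal genes beside genes known from other tissues. Myh11, the heavy chain of smooth muscle myosin, was at 2.83, 16.2 and 6.12 RPM in the P1 libraries and 40.1, 54.9 and 28.7 RPM at P3. Pgm5, a phosphoglucomutase-like protein of cell adhesion sites, was at 3.82, 9.57 and 5.83 RPM at P1 and 33.7, 40.8 and 19.9 RPM at P3. For both genes every P3 library exceeded every P1 library, and P1 replicate 2 was the highest of P1. Myh11 rose by 2.39 ± 0.34 (log2 change ± standard error, adjusted p = 5.3e-05, limma) and Pgm5 by 2.15 ± 0.30 (adjusted p = 4.8e-05). Khdc1b and Khdc1a, KH-domain genes of the oocyte on chromosome 1 that belong to a family of close copies, rose by 2.14 ± 0.30 and 2.06 ± 0.36. Khdc1b went from 47.0, 191 and 86.8 RPM to 292, 552 and 430 RPM, and its lowest P3 library was above its highest P1 library. The predicted gene Gm15698, chosen after its values were seen, rose by 3.54 ± 0.42, from 7.39, 56.7 and 15.3 RPM to 252, 204 and 238 RPM.

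Pkd1l3, a polycystin-like membrane protein, was at 2.10, 9.16 and 4.35 RPM at P1 and 14.6, 30.8 and 20.4 RPM at P3. Gpx3, a secreted glutathione peroxidase, was at 5.30, 11.6 and 7.21 RPM at P1 and 23.0, 52.8 and 30.4 RPM at P3. Neither gene overlapped between the groups, which the naming rule required, and the rises were 1.99 ± 0.35 and 1.99 ± 0.24. Wscd2, a membrane protein with WSC domains, rose by 1.78 ± 0.25 from a mean of 51.6 ± 23.1 to 174 ± 49.6 RPM (SD, n = 3), and Olfm1, a secreted olfactomedin, by 1.62 ± 0.28 from 12.8 ± 6.17 to 41.4 ± 21.4 RPM. The pseudogene Nlrp5-ps had the largest change of these 12 genes, 2.85, but not a steady one: it was at 1.23, 1.68 and 2.00 RPM at P1 and at 42.6, 40.3 and 2.73 RPM at P3, so that P3 replicate 3 stayed near P1. Its adjusted p in limma was 0.044. It was no longer called without P1 replicate 1 (0.14), P1 replicate 2 (0.073), P1 replicate 3 (0.079), P3 replicate 1 (0.16) or P3 replicate 2 (0.18). Reads could be shared with other Nlrp copies, which was not measured, so its level is uncertain.

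**Figure D3:**
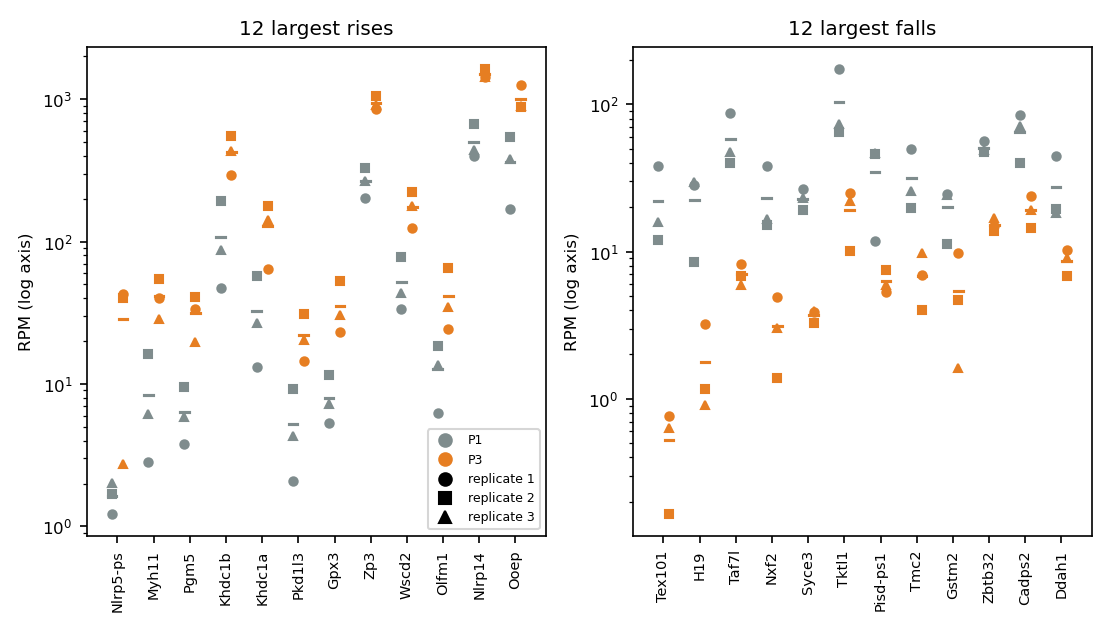
RPM on a log axis of the 12 largest rises and the 12 largest falls in each P1 and P3 library (points). In all 24 genes the P1 and P3 points do not overlap, which the rule for naming them required; Nlrp5-ps has 1 P3 point, at 2.73 RPM, close to its P1 points.

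The 12 largest falls, named by the same rule of no overlap, included 3 genes of the X chromosome, Taf7l, Nxf2 and Tktl1. Tex101, a surface glycoprotein of germ cells, was at 37.9, 12.0 and 15.9 RPM at P1 and at 0.769, 0.166 and 0.630 RPM at P3. Taf7l, the germ cell counterpart of the TFIID subunit TAF7, was at 87.9, 39.9 and 47.5 RPM at P1 and at 8.24, 6.81 and 5.95 RPM at P3. In both genes the P3 libraries were far below all P1 libraries, and P1 replicate 1 was the highest. Tex101 fell by 3.77 ± 0.26 on the log2 scale (adjusted p = 1.8e-09, limma) and Taf7l fell by 2.82 ± 0.22 (adjusted p = 9.3e-09). Nxf2, an mRNA export factor of germ cells on the X chromosome, fell by 2.54 ± 0.31, from 37.9, 15.3 and 16.53 RPM to 4.94, 1.38 and 3.01 RPM. Tktl1, a transketolase-like gene also on the X chromosome, fell by 2.33 ± 0.33 from a mean of 104 ± 60.5 to 19.14 ± 7.98 RPM (SD, n = 3).

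Syce3, a protein of the central element of the synaptonemal complex, was at 26.4, 19.3 and 23.1 RPM at P1 and 3.90, 3.27 and 3.92 RPM at P3, a change of -2.34 ± 0.23. Zbtb32, a zinc finger repressor, fell by 1.68 ± 0.20, from 56.2, 47.3 and 49.4 RPM to 15.04, 13.7 and 16.9 RPM. Its E18.5 mean was 53.4 ± 6.08 RPM (SD, n = 3), close to its P1 mean of 51.0 RPM. Tmc2, a channel protein known from hair cells, fell by 2.02 ± 0.26, Ddah1, an enzyme that breaks down methylated arginine, by 1.46 ± 0.32, and Cadps2, a factor of vesicle release, changed by -1.67 ± 0.22. The imprinted noncoding RNA H19 was at 28.5, 8.50 and 29.8 RPM at P1 and at 3.24, 1.16 and 0.910 RPM at P3, a change of -2.98 ± 0.35, and Gstm2, a glutathione transferase, fell by 1.88 ± 0.37. H19 is also abundant in somatic cells of the fetus, and the part of the stroma marker sums given above in its fall was not tested. The transcribed pseudogene Pisd-ps1 (-2.09) went against the pattern of the P1 libraries: P1 replicate 1 was its lowest, at 11.8 RPM against 46.1 and 46.6 RPM.

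By amount of RNA, the largest gains among called genes were those of Padi6, Zp2, Nlrp14, Ccdc82, Zp3 and Ooep. Padi6, a peptidylarginine deiminase of the cytoplasmic lattices of the egg, was at 1237, 2529 and 2103 RPM at P1 and 4307, 4732 and 3982 RPM at P3. That is a mean of 1957 ± 658 against 4340 ± 376 RPM (SD, n = 3), a log2 change of 1.21 ± 0.20 (adjusted p = 2.3e-04, limma). Ccdc82, a coiled-coil gene, was already at 2464 to 2846 RPM at P1 and rose by 0.44 (adjusted p = 0.026), but it was not called without P1 replicate 1 (0.10), P1 replicate 2 (0.068), P3 replicate 1 (0.064), P3 replicate 2 (0.053) or P3 replicate 3 (0.074). Among the largest losses of called genes were those of Actg1, Kit, Skp1a and Neb. Actg1, cytoplasmic gamma actin, fell by 0.50 ± 0.094 from 2224, 2117 and 2280 RPM to 1723, 1562 and 1406 RPM. Skp1a, a subunit of SCF ubiquitin ligases, fell by 0.30 ± 0.086 from 1805, 1774 and 1852 RPM to 1622, 1406 and 1398 RPM, and was not called without P1 replicate 1 (adjusted p = 0.060), P1 replicate 3 (0.057), P3 replicate 2 (0.084) or P3 replicate 3 (0.078). Neb, the giant muscle protein nebulin, fell by 0.80 ± 0.20, and this call ended without P1 replicate 1 (adjusted p = 0.067).

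Genes of the egg coat and the growth factors of the oocyte rose together. Of 9 tested members (11 in the list), 7 rose (77.8%, beside 8.94% of all genes) and none fell (beside 9.34%), with a median change of 0.99 against -0.01 over all genes. Zp3, the sperm receptor protein of the zona pellucida, was at 203, 328 and 266 RPM at P1 and 846, 1052 and 906 RPM at P3. Zp2, its partner, was at 621, 1290 and 787 RPM at P1 and 1643, 2246 and 2155 RPM at P3. No P1 library reached a P3 library in either gene, which for Zp3 the naming rule required. The changes were 1.83 ± 0.18 (adjusted p = 5.1e-07, limma) and 1.22 ± 0.20. Zp1, which links the filaments of the coat, rose by 0.99 ± 0.22, by 0.61 without P1 replicate 1. Gdf9 and Bmp15, growth factors that act on granulosa cells, rose by 0.95 ± 0.18 and 0.99 ± 0.21, yet from different levels: Gdf9 went from 108, 205 and 183 RPM to 329, 300 and 302 RPM, and Bmp15 from 6.35, 6.52 and 7.89 RPM to 14.9, 16.9 and 12.6 RPM.

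Oosp2, an oocyte-secreted protein, was almost silent at P1, at 1.17, 1.43 and 1.26 RPM, and stood at 5.27, 6.37 and 4.55 RPM at P3, a change of 1.48 ± 0.15. Its neighbour Oosp1 was at 1.66 ± 0.37 RPM at P1 and 2.46 ± 0.20 RPM at P3 (SD, n = 3) and was not called (adjusted p = 0.15). The growth factor gene Bmp6 was at 6.66 ± 2.07 and 5.84 ± 1.60 RPM, with overlapping libraries (adjusted p = 0.67). Astl, the protease of egg cortical granules, rose by 0.64 but was not called without P1 replicate 1 (adjusted p = 0.33), P3 replicate 2 (0.10) or P3 replicate 3 (0.12). Without P1 replicate 1 the list held 6 risers.

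Maternal-effect genes, whose products the egg stores for the embryo, rose in 7 of 20 tested members (35%, beside 8.94% of all genes) and fell in none (median 0.39). Nlrp14 went from 396, 669 and 441 RPM to 1430, 1621 and 1424 RPM, a change of 1.61 ± 0.27 (adjusted p = 3.5e-04, limma). Ooep, a KH-domain protein of the subcortical maternal complex, went from 169, 546 and 377 RPM to 1265, 875 and 888 RPM, a change of 1.61 ± 0.31 (adjusted p = 9.6e-04). The P1 libraries of Ooep were spread widely, with replicate 1 lowest. That none of them reached P3 was required by the rule that named the gene. The most abundant members showed less: Nlrp5 was at 1721, 2285 and 3042 RPM at P1 and 3661, 3269 and 2669 RPM at P3 (adjusted p = 0.40), and Dppa3, the Stella gene behind the reporter, was at 1912 ± 121 and 2146 ± 171 RPM (SD, n = 3, adjusted p = 0.76). Khdc3 (0.69) and Uhrf1 (0.39) were called, but not without P1 replicate 1 (adjusted p = 0.31 and 0.28), P3 replicate 1 (0.078 and 0.071) or P3 replicate 2 (0.12 and 0.074), and Uhrf1 not without P3 replicate 3 (0.070). Nlrp4e, like Nlrp5-ps, was near P1 in P3 replicate 3 alone: 27.7, 18.3 and 0.700 RPM at P3 against 0.678, 0.865 and 1.14 RPM at P1 (adjusted p = 0.077). For both genes the P3 group thus held 2 libraries far above P1 and 1 near it, so their mean changes do not describe all of P3; what separates that library was not tested.

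Among gene families found mainly in oocytes, 9 of 20 tested members rose (45%, beside 8.94% of all genes) and none fell (median 0.62). The rises were uneven by family. All 4 tested members of the Oas1 cluster on chromosome 5, relatives of the antiviral 2-5A synthetases, rose: Oas1d by 1.55 ± 0.27, Oas1c by 1.39 ± 0.27, Oas1h by 0.98 ± 0.21 and Oas1e by 0.77 ± 0.16. Oas1d was at 42.3, 137 and 110 RPM at P1 and 263, 272 and 231 RPM at P3, with P1 replicate 1 lowest and no overlap. Without that library the changes of Oas1c, Oas1h and Oas1e were 0.86, 0.65 and 0.49, all still called. In the F-box Fbxw family 2 of the 11 tested members rose, Fbxw15 (0.91) and Fbxw24 (0.53), and both calls ended without P1 replicate 1 (adjusted p = 0.13 and 0.20) and P3 replicate 1 (0.056 and 0.075), that of Fbxw24 also without P3 replicate 3 (0.092). The close copies within each of these families can exchange reads, which makes single members uncertain.

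Of the genes for proteins that store and translate maternal mRNA, 3 of 23 tested members were higher and 3 lower (13% each, beside 8.94% and 9.34% of all genes, median -0.05). Zar1, an RNA-binding protein of the maternal store, was at 6.41, 29.9 and 25.2 RPM at P1 and 37.3, 67.5 and 50.1 RPM at P3, a rise of 1.49 ± 0.35 that was 0.85 without P1 replicate 1. Btg4, an adaptor of mRNA deadenylation, rose by 1.21 ± 0.21 from 33.9 ± 8.62 to 78.3 ± 10.4 RPM (SD, n = 3), and Cnot7, a deadenylase it binds, by 0.44 ± 0.099 from 83.7 ± 9.92 to 113 ± 1.06 RPM. The abundant storage proteins were not called: Ybx2 was at 1029 ± 26.5 RPM at P1 and 842 ± 3.55 RPM at P3 (adjusted p = 0.18), and Lsm14b at 1148 ± 49.6 and 1101 ± 24.5 RPM (adjusted p = 0.74). The 3 lower members, Celf1 (-0.35), Lsm14a (-0.31) and Dazl (-0.31), the last pair named after their values were seen, were not steady: none was called without P1 replicate 1 or P3 replicate 2, 1 without P1 replicate 3 and 1 without P3 replicate 3. Dazl, an RNA-binding protein of germ cells, was called in only 1 of the 6 fits that leave out a library. The linker histone of the oocyte, H1foo, rose by 1.05 ± 0.18, from 44.2, 57.8 and 57.3 RPM to 122, 109 and 99.9 RPM.

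**Figure D4:**
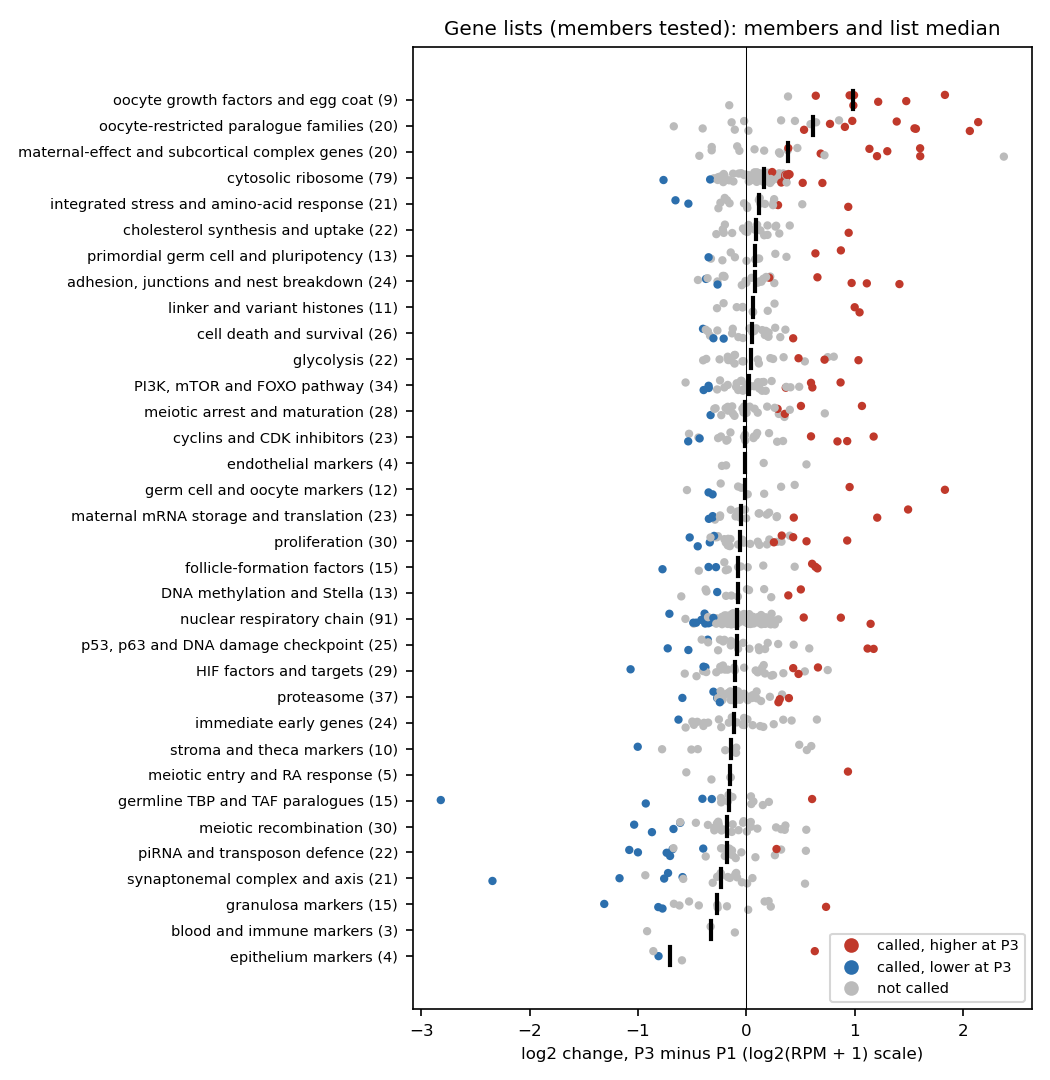
Log2 change from P1 to P3 (horizontal axis, log2(RPM + 1) scale) of every tested member (points) of the 34 gene lists, with the list median and, in brackets, the number of members tested. The medians of the egg coat and growth factor list (0.99), the paralogue families (0.62) and the maternal-effect genes (0.39) lie to the right of 0, and those of the other lists lie between -0.70 (epithelium markers, 4 tested members) and 0.16.

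Most members of the list of follicle-formation factors were not called. The list holds transcription factors and also the receptors Kit, Notch2 and Ntrk2 and the Notch ligand Jag1. Of 15 tested members of this list, 3 rose, 3 fell (20% each, beside 8.94% and 9.34% of all genes) and 9 were not called, with a median of -0.08. The counts were 1 and 0 without P1 replicate 1 and 1 and 1 without P3 replicate 2, and 1 member fell without P1 replicate 3, P3 replicate 1 or P3 replicate 3. Figla was at 259, 294 and 294 RPM at P1 and 236, 270 and 302 RPM at P3 (adjusted p = 0.84). Sohlh1 was at 618, 590 and 576 RPM at P1 and 610, 597 and 594 RPM at P3 (adjusted p = 0.98). Both overlapped between the groups. Nobox was at 499, 652 and 591 RPM at P1 and 747, 860 and 759 RPM at P3; these values did not overlap, but the change of 0.45 ± 0.21 was not called (adjusted p = 0.14). Lhx8 was at 319 ± 27.4 and 279 ± 11.4 RPM (SD, n = 3, adjusted p = 0.52).

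The 3 members that rose were Jag1, Pou5f1 and Tbpl2. Jag1, a Notch ligand on the oocyte, rose by 0.66 ± 0.12 from 94.0, 137 and 133 RPM to 184, 185 and 198 RPM (adjusted p = 7.6e-04, limma). Tbpl2, the oocyte counterpart of the TATA-binding protein, rose by 0.61 ± 0.18 from a mean of 50.8 ± 5.70 to 77.8 ± 5.74 RPM (SD, n = 3). Neither gene overlapped between the groups, but Tbpl2 was not called without P1 replicate 1 (adjusted p = 0.13), P3 replicate 2 (0.077) or P3 replicate 3 (0.076), and Pou5f1 (0.64) not without P1 replicate 1 (0.15) or P3 replicate 2 (0.075). The 3 that fell were Kit, described next, the zinc finger factor Yy1 (-0.28; named after its values were seen) and Gata4 (-0.77), a factor of somatic gonad cells at only 4.25 ± 0.49 RPM at P1 and 2.13 ± 0.75 RPM at P3. Yy1 was not called without P1 replicate 1 (0.16), P1 replicate 3 (0.059), P3 replicate 1 (0.080) or P3 replicate 2 (0.084), and Gata4 not without P1 replicate 1 (0.12), P1 replicate 3 (0.072) or P3 replicate 3 (0.16).

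In the pathway from KIT to FOXO3, 4 of 34 tested members rose and 3 fell (11.8% and 8.82%, near the 8.94% and 9.34% of all genes), and the median was 0.02. Without P1 replicate 1, P3 replicate 2 or P3 replicate 3, 1 member fell. Kit, the receptor that carries the growth signal from granulosa cells, was at 1939, 1532 and 1563 RPM at P1 and 1282, 1296 and 1356 RPM at P3. All P3 libraries were below all P1 libraries, and P1 replicate 1 stood above the other two. Kit fell by 0.35 ± 0.11 (adjusted p = 0.036, limma), but was not called without P1 replicate 1 (0.24), P3 replicate 1 (0.085), P3 replicate 2 (0.099) or P3 replicate 3 (0.062). Foxo3, the factor that holds primordial follicles dormant and the subject of the series, was at 223, 221 and 217 RPM at P1 and 174, 199 and 201 RPM at P3, values that did not overlap. Its change of -0.20 ± 0.11 was not called (adjusted p = 0.23). Foxo1, its relative, was at 112, 109 and 112 RPM at P1 and 81.9, 88.0 and 82.9 RPM at P3 and fell by 0.39 ± 0.095 (adjusted p = 0.0058).

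Pik3r1, the regulatory subunit of PI3K, rose by 0.61 ± 0.13 from 56.9, 81.0 and 74.3 RPM to 106, 108 and 109 RPM. Prkaa2, a catalytic subunit of the energy sensor AMPK, rose by 0.87 ± 0.19 from 32.2 ± 10.4 to 57.9 ± 8.48 RPM (SD, n = 3). The kinase gene Akt1, named after its values were seen, fell by 0.35 ± 0.097 and was not called without P1 replicate 1 (adjusted p = 0.11), P3 replicate 2 (0.052) or P3 replicate 3 (0.059). Cdkn1b, the p27 inhibitor of cyclin-dependent kinases and a target of FOXO factors, went from 47.3, 72.7 and 71.3 RPM to 84.7, 105 and 97.0 RPM. It rose by 0.60 ± 0.18 (adjusted p = 0.024), a call that ended without P1 replicate 1 (0.20), P3 replicate 2 (0.10) or P3 replicate 3 (0.066).

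The other inhibitors of cyclin-dependent kinases that were called also rose. Cdkn1c was at 31.7, 48.3 and 41.2 RPM at P1 and 70.0, 73.6 and 72.9 RPM at P3, a rise of 0.84 ± 0.15 (adjusted p = 3.9e-04, limma). Cdkn1a, the p21 inhibitor induced by p53, was at 7.09, 17.5 and 17.1 RPM at P1 and 29.7, 40.8 and 23.4 RPM at P3. The groups of Cdkn1a did not overlap, and the rise was 1.18 ± 0.30, or 0.78 without P1 replicate 1, where it was not called (adjusted p = 0.11), as it was not without P3 replicate 2 (0.065). Ccnb1, the cyclin of the M phase, rose by 0.93 ± 0.13 from 70.4, 82.3 and 83.6 RPM to 156, 148 and 148 RPM. Over the 23 tested cyclins, kinases and inhibitors 4 rose (17.4%, beside 8.94% of all genes), and 2 rose without P1 replicate 1 or P3 replicate 2. The 2 that fell (8.70%, near the 9.34% of all genes) were Cdk2 (-0.43 ± 0.082) and Cdk4 (-0.54 ± 0.11), both named after their values were seen. Zmat3, a target of p53, rose by 1.12 ± 0.26 from 12.0 ± 3.72 to 27.6 ± 10.0 RPM (SD, n = 3), not called without P1 replicate 1 (adjusted p = 0.05001), while the whole list of p53 and checkpoint genes had 2 of 25 higher and 3 lower (8% and 12%, near the shares of all genes, median -0.08). None of that list was called without P1 replicate 1, and Phlda3 (-0.73), one of the 3 lower, was called in none of the 6 fits that leave out a library. Trp63, whose product removes oocytes with DNA damage, was at 306 ± 18.4 and 332 ± 16.6 RPM and was not called (adjusted p = 0.73).

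Of the genes of cell death and survival, 1 of 26 tested members rose and 3 fell (3.85% and 11.5%, beside 8.94% and 9.34% of all genes, median 0.05). Birc5, survivin, rose by 0.43 ± 0.090 from 239, 281 and 287 RPM to 359, 362 and 367 RPM. Bax, the pore former of mitochondrial death, fell by 0.40 ± 0.10 from 102, 78.0 and 86.1 RPM to 71.1, 62.8 and 66.0 RPM and was not called without P1 replicate 1 (adjusted p = 0.10) or P3 replicate 2 (0.055). Mcl1 (-0.21) was not called without P1 replicate 1 (0.11), P1 replicate 3 (0.091), P3 replicate 1 (0.054) or P3 replicate 3 (0.094), nor Diablo (-0.30) without P1 replicate 1 (0.17), P1 replicate 3 (0.075), P3 replicate 2 (0.17) or P3 replicate 3 (0.079). In bulk libraries, fewer cells that express a gene and less of its RNA per cell cannot be told apart.

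Some genes of meiotic prophase fell. In the list of the synaptonemal complex and chromosome axis, 5 of 21 tested members fell (23.8%, beside 9.34% of all genes) and none rose (median -0.24). In that of recombination 4 of 30 fell (13.3%, nearer that share) and none rose (median -0.17). Hormad1, an axis protein that marks unsynapsed chromosomes, was at 43.8, 28.3 and 33.5 RPM at P1 and 16.9, 13.1 and 14.8 RPM at P3, a change of -1.17 ± 0.18 (adjusted p = 1.0e-04, limma). Sycp1, the transverse filament of the complex, was at 383, 283 and 284 RPM at P1 and 237, 151 and 178 RPM at P3, a change of -0.76 ± 0.15. Both genes were lower in every P3 library than in any P1 library. The cohesin subunit Stag3 fell by 0.59 ± 0.12, and 4930447C04Rik, the gene of the central element protein SIX6OS1, by 0.72 ± 0.18, the latter not called without P1 replicate 1 (adjusted p = 0.064).

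The most abundant axis genes were not called: Sycp3, at 552 ± 88.2 RPM at P1, was at 465 ± 38.6 RPM at P3 (SD, n = 3, adjusted p = 0.29), and the cohesin Smc1b at 739 ± 117 and 651 ± 10.0 RPM (adjusted p = 0.32). In recombination, the falls were of Meiob (-1.04), Prr19 (-0.87), Spo11 (-0.67) and Tex11 (-0.61), and none of these calls held when each library was left out. The highest adjusted p was 0.19 for Meiob without P3 replicate 3, 0.15 for Prr19 without P3 replicate 2, 0.096 for Spo11 without P1 replicate 3 and 0.098 for Tex11 without P1 replicate 1. Spo11, the enzyme that makes meiotic breaks, was already at 2.47, 2.65 and 3.43 RPM at P1. Tex15, an abundant member of the list, was at 1215 ± 238 and 870 ± 42.9 RPM and was not called (adjusted p = 0.063). Without P1 replicate 1, 4 members fell in the list of the synaptonemal complex, and in that of recombination 2 fell without any one of P1 replicate 1, P1 replicate 3, P3 replicate 2 and P3 replicate 3.

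Taf7l was the only member of the general transcription list to change by 1 or more. In that list of TBP and its associated factors, 1 of 15 tested members rose (Tbpl2, 6.67%, beside 8.94% of all genes). The list had 4 that fell (26.7%, beside 9.34% of all genes, median -0.16). Beside Taf7l these were Taf9b (-0.93), Taf4a (-0.40) and Taf5l (-0.32, named after its values were seen), none of them called without P1 replicate 1 (adjusted p = 0.10, 0.10 and 0.18) or P3 replicate 2 (0.058, 0.087 and 0.065). Leaving out P3 replicate 1 also ended the calls of Taf4a (0.077) and Taf5l (0.073), P1 replicate 3 that of Taf4a (0.068), and P3 replicate 3 that of Taf9b (0.054). The common forms Tbp and Taf7 were at 40.5 ± 0.73 and 131 ± 22.6 RPM at P1 and were not called (adjusted p = 0.67 and 0.24).

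Genes of the piRNA pathway, which silences transposons in germ cells, fell in 6 of 22 tested members (27.3%, beside 9.34% of all genes) and rose in 1 (4.55%, beside 8.94%; median -0.18). Rnf17, a Tudor protein, was at 184, 131 and 145 RPM at P1 and 73.2, 62.3 and 79.3 RPM at P3, a change of -1.08 ± 0.11 (adjusted p = 1.3e-06, limma). Mov10l1, the helicase that starts piRNA production, was at 710, 488 and 530 RPM at P1 and 390, 295 and 369 RPM at P3, a change of -0.70 ± 0.15. Both were lower in every P3 library than in any P1 library, as was the chaperone Fkbp6 (-0.74 ± 0.11, from 293 ± 51.3 to 175 ± 19.5 RPM). Piwil4 fell from 8.38 ± 1.62 to 3.70 ± 0.987 RPM (SD, n = 3) but was not called without P1 replicate 1 (adjusted p = 0.12), P1 replicate 3 (0.093), P3 replicate 2 (0.099) or P3 replicate 3 (0.10). Without P1 replicate 1 the list held 4 falls and no rise. The level of Tdrd1, 918 ± 80.1 RPM at P1 and 709 ± 79.97 RPM at P3 (SD, n = 3), did not pass the test (adjusted p = 0.12).

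Of the genes of nest breakdown, adhesion and junctions, 5 of 24 rose and 2 fell (20.8% and 8.33%, beside 8.94% and 9.34% of all genes, median 0.08). These counts were 1 and 0 without P1 replicate 1 and 2 and 1 without P3 replicate 2, 3 rose without P1 replicate 3 or P3 replicate 3, and 1 fell without the latter. Of the risers, Jag1 is described above, Adam10 (0.21), named after its values were seen, was called in none of the 6 fits that leave out a library, and Gjb2 (0.97) was called in 2. Adam19, a membrane protease, was at 37.0, 97.3 and 72.4 RPM at P1 and 130, 226 and 173 RPM at P3, a rise of 1.41 ± 0.37 that was not called without P1 replicate 1 (adjusted p = 0.11) or P3 replicate 2 (0.064). Its mean was 3.75 ± 0.49 RPM at E18.5 and 232 ± 58.6 RPM in small oocytes at P4 (SD, n = 3). The beta-catenin gene Ctnnb1 (-0.27 ± 0.067) and the alpha-catenin gene Ctnna1 (-0.37 ± 0.10), named after their values were seen, fell. Both calls ended without P1 replicate 1 (adjusted p = 0.065 and 0.073), and that of Ctnna1 also without P3 replicate 2 (0.056) and P3 replicate 3 (0.056).

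In energy metabolism, 3 of 22 glycolytic genes rose (13.6%, beside 8.94% of all genes) and none fell, while the list median was 0.04. Gapdh was at 37.8, 69.8 and 59.4 RPM at P1 and 117, 115 and 103 RPM at P3, a rise of 1.04 ± 0.17 (adjusted p = 1.9e-04, limma). Aldoa rose by 0.72 ± 0.15 from 118 ± 32.7 to 190 ± 13.6 RPM (SD, n = 3) and Eno1 by 0.48 ± 0.11 from 63.2 ± 2.90 to 88.8 ± 6.05 RPM. All 3 stayed called whichever library was left out. The lactate dehydrogenase subunit Ldhb, far more abundant at 1585 ± 295 and 1989 ± 46.2 RPM, was not called (adjusted p = 0.061), nor was Pkm (adjusted p = 0.097). Among 29 hypoxia-inducible factors and their targets, the group of interest for the hypoxia arm of the series, 3 rose and 3 fell (10.3% each, near the shares of all genes, median -0.11), and 2 and 1 without P1 replicate 1. Bnip3l, a receptor of mitophagy, rose by 0.43 ± 0.083 and the oxygen sensor Egln3 fell by 1.07 ± 0.23, from 3.88, 4.38 and 3.55 RPM to 1.32, 1.33 and 1.40 RPM. Eno1 was the other steady riser, whereas Pfkfb3 (0.66), Egln2 (-0.38) and Bnip3 (-0.39) were called in 3, 3 and 4 of the 6 fits that leave out a library, the last pair named after their values were seen.

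Of the 79 tested genes of the cytosolic ribosome, 15 rose and 2 fell (19.0% and 2.53%, beside 8.94% and 9.34% of all genes, median 0.16). Rpl28 was the largest rise at 0.70 ± 0.13, from 491, 665 and 614 RPM to 902, 1013 and 949 RPM. Rpl10l, a germline copy of Rpl10, fell by 0.76 ± 0.19 from 173, 83.7 and 98.0 RPM to 78.9, 55.9 and 64.4 RPM, with P1 replicate 1 far above the others; without that library its change was -0.46 (adjusted p = 0.086). The count of risers was 1 without P1 replicate 1, 17 without P1 replicate 2, 9 without P1 replicate 3, and 5, 3 and 8 without P3 replicates 1, 2 and 3. Of 91 nuclear genes of the respiratory chain, 3 rose and 10 fell (3.30% and 11%, beside 8.94% and 9.34% of all genes, median -0.08). These counts were 1 and 2 without P1 replicate 1, 3 and 5 without P1 replicate 3, 1 and 13 without P3 replicate 1, 1 and 1 without P3 replicate 2, and 3 and 3 without P3 replicate 3. Cox4i2, an alternative subunit of cytochrome oxidase, rose by 1.15 ± 0.23 from 35.1, 50.6 and 47.1 RPM to 80.6, 92.8 and 126 RPM. The common form Cox4i1 was at 747 ± 61.9 and 751 ± 45.4 RPM (SD, n = 3) and was not called (adjusted p = 0.97).

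The course of the leading genes around these 2 ages was read from other libraries of the series. At E18.5 the means of Khdc1b (15.3 ± 5.87 RPM), Zp3 (36.8 ± 3.12 RPM) and Myh11 (0.877 ± 0.466 RPM) were below those at P1, and those of Tex101 (116 ± 17.2 RPM), H19 (102 ± 25.2 RPM) and Ddah1 (109 ± 12.3 RPM) above (SD, n = 3). In small oocytes at P4 the mean of Zp3 was 933 ± 182 RPM, against 935 ± 106 RPM at P3, whereas Khdc1b stood at 917 ± 221 RPM against 424 ± 130 RPM. Between small and large oocytes at P4 the risers then parted. After rescaling by size factors, the median change of all genes in large against small oocytes was -0.01, against -0.43 before. On the rescaled values Zp3 was higher in large oocytes by 3.32, Nlrp14 by 2.75 and Khdc1b by 1.90. Pgm5 changed by -4.89 in them (adjusted p = 8.8e-14, limma), Wscd2 by -3.02 and Adam19 by -6.38: Pgm5 was at 44.0 ± 9.28 RPM in small oocytes, and large ones had 0.252 ± 0.131 RPM.

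**Figure D5:**
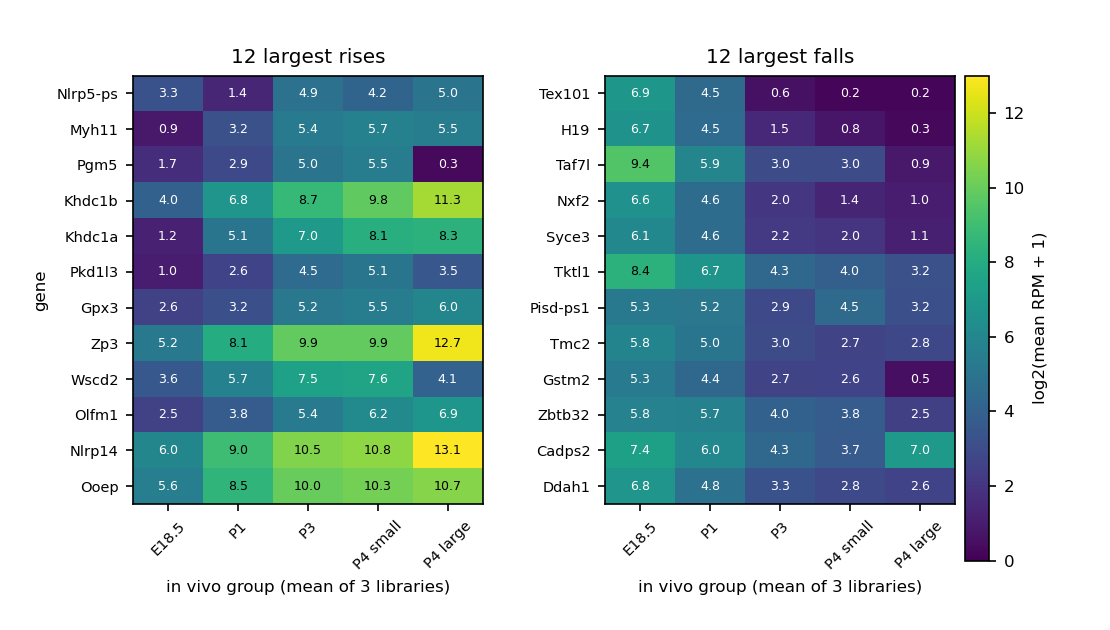
Mean level of the 12 largest rises and the 12 largest falls in 5 in vivo groups, from E18.5 through P1 and P3 to small and large oocytes at P4 (columns, mean of 3 libraries), as log2(RPM + 1). Pgm5 and Wscd2 rise to small oocytes at P4 and are low in large ones, Zp3 and Nlrp14 go on to higher levels, and Tex101 and Taf7l fade from E18.5 onward.

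Over all called genes, the split of the risers between large and small oocytes of P4 was near even after rescaling and moved with the scaling. Of the 1160 genes higher at P3 that were tested between large and small oocytes at P4, 451 (38.9%) were higher in large oocytes and 445 (38.4%) lower after rescaling, beside 36.8% and 35.8% of all genes in that test. Of the 12689 genes tested in both comparisons, 34.5% were higher in large oocytes and 37.3% lower. The share of risers that were higher lay above this background, and the share that were lower lay near it. Of the 1152 genes lower at P3, 414 were higher and 442 lower. Without rescaling, 297 risers (25.6%) were higher in large oocytes and 635 (54.7%) lower, beside 23.1% and 54.8% of all genes, and of the genes lower at P3 208 were higher and 711 lower. Among the genes tested in both comparisons, 20.2% were then higher and 57.1% lower. In culture, between day 13 (D13) and day 11 (D11) of reconstituted ovaries, 677 of 1147 risers (59.0%) were higher at D13 after rescaling and 203 (17.7%) lower, beside 31.8% and 39.6% of all genes, and the risers' median change was 0.83 against -0.15 over all genes. Among the 12862 genes tested both there and at P3 against P1, 34.2% were higher at D13 and 35.1% lower, with a median change of -0.03. Of the genes lower at P3, 620 of 1209 (51.3%) were lower at D13 and 243 higher. Without rescaling, where the median change of all genes was -0.54, the shares were 48.3% higher and 25.4% lower among risers, beside 20.9% and 52.9% of all genes, and of the genes lower at P3 834 were lower and 96 higher. Among the genes tested in both comparisons, 21.75% were then higher at D13 and 49.88% lower. The P4 and culture comparisons share no library with that of P3 and P1, and the difference from the background was not tested.

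On the X chromosome, 66 of 470 genes tested (14%, beside 9.34% of all genes) fell and 40 (8.51%) rose, and on the autosomes the share that fell ran from 6.5% on chromosome 18 to 12.1% on chromosome 3. Taf7l, Nxf2, Tktl1, Tex11 and Taf9b were among the 66. The median change on the X chromosome was -0.03, near that of all genes, and this difference in shares was not tested. In transcript length and base composition the called genes were close to the rest: the median longest transcript was 3357 bases in risers, 3540 in fallers and 3389 in all genes tested, and the GC content 49.6%, 49.3% and 49.6%.

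Markers of other cells were counted in the same way. Of 15 tested granulosa markers 1 rose and 3 fell (6.67% and 20%, beside 8.94% and 9.34% of all genes, median -0.27): Fam19a1 rose by 0.74, and Wnt4 (-1.31 ± 0.30), Krt18 (-0.81) and Gata4 fell, with Wnt4 at 2.71, 3.77 and 4.63 RPM at P1 and 1.04, 1.495 and 0.280 RPM at P3; Wnt4 and Krt18 are named after their values were seen. Kitl, the ligand of KIT, was at 12.0, 6.87 and 8.35 RPM at P1 and 6.70, 5.54 and 5.32 RPM at P3 (adjusted p = 0.10). Of 10 tested stroma markers 1 fell, Col6a1 (10%, near the 9.34% of all genes), and of the 4 endothelial and 3 blood markers tested none was called. Of the 4 tested epithelium markers (median -0.70) Aldh1a2 rose by 0.63 and Krt7, at 2.80 RPM or less in all 6 libraries, fell by 0.81 (25% each way). They were called in 1 and 2 of the 6 fits that leave out a library. The calls of Fam19a1 and Col6a1 ended without P1 replicate 1 (adjusted p = 0.19 and 0.24), P1 replicate 3 (0.060 and 0.12), P3 replicate 2 (0.084 and 0.13) or P3 replicate 3 (0.17 and 0.11), and that of Krt18 without the same 4 libraries (0.15, 0.20, 0.13 and 0.098). Globin reads were present in P1 replicate 1 and P3 replicate 2 only, with Hbb-bs at 3.94 and 1.495 RPM. The part of other cells in the changes of the oocyte lists was not tested.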

How the data were processed

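The deposited table gives RPM for each gene and library. Per the submitters' processing notes, TopHat2, Bowtie2 2.0.13, featureCounts 1.5.1, R 3.4.4 and build mm10 were used; their settings, the annotation and the strand setting are not given in the sources used here. Per the labels' protocols, libraries were directional and from poly(A) RNA. This does not tell whether PCR copies were removed. The deposited RPM values sum to 1000000 in each library and are whole multiples of 1 read (99.996% or more of values within 0.01), so reads were recovered.

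Log2(RPM + 1) values of the 27 in vivo libraries (9 groups, 18 residual degrees of freedom) were fitted with limma 3.58.1 (trend, R 4.3.3) over genes with a mean of 1 RPM or more at P1 or P3. P-values were adjusted by Benjamini-Hochberg over all 13072 genes, with a threshold of 0.05. Alternatives were edgeR 4.0.16 (quasi-likelihood) and DESeq2 1.42.0 on the recovered reads, median-of-ratios rescaling, pseudocounts of 0.25 and 5, no filter or 5 RPM, the 6 libraries alone, a replicate block, and leaving out each library. Reads of this comparison were also simulated for 13072 genes. The share of true changes called was 50.7% at a fold of 1.5, 85.1% at a fold of 2 and 100% at a fold of 4, with 8 false calls. The changed genes, 66 or 67 per fold, had a P1 mean of 5 RPM or more. Reads were drawn independently for each gene, without a shift shared across genes such as that of P1 replicate 1. These shares and false calls do not carry over to lower genes or to such a shift.

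Named genes were the 12 largest rises and falls among called genes with no overlap and a higher group mean of at least 20 RPM, passing over predicted genes (the 24 therefore leave out Gm15698, 3.54, and Gm6880, -2.91), the 6 largest gains and losses in RPM, Foxo3, and up to 4 called and 2 abundant uncalled members of each of 34 lists. Some genes that the rule names are not reported here. Members named beyond this rule were chosen after their values were seen. The lists and the comparison were chosen with earlier results of these data known. RefSeq promoter entries covered 79.5% of genes, under the 80% set, so promoter properties were not compared between gene sets. Symbols matched RefSeq for 23901 of 24062 genes.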

Additional observations from a re-analysis of the deposited data

How the results depend on the processing

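No gene that was called changed direction in any of the 15 alternatives. Leaving out 1 library gave between 923 (without P1 replicate 1) and 2514 (without P1 replicate 2) called genes, 448 to 1282 higher and 475 to 1232 lower, and 178 to 491 that changed by 1 or more. Genes called with a change of 1 or more numbered 106 with a pseudocount of 5, 468 with 0.25, 496 by DESeq2 and 304 in the analysis reported. The pseudocount sets the scale of low genes by construction. The cause of the other shifts was not tested. Of the 119 named genes that were called, 61 kept the call under every alternative in which they were tested (109 of the 119 were tested with the 5 RPM filter), and of the 24 leading genes 23 did, the exception being Nlrp5-ps. By edgeR 103 of the 119 were called, without Gata4, Piwil4, Diablo, Mcl1, Dazl, Gjb2, Phlda3, Aldh1a2 and Krt7 among those described above. The fit of the 6 libraries alone called 1990 genes and 91 of the 119. Of those described, it did not call Kit, Skp1a, Gata4, Zar1, Uhrf1, Meiob, Prr19, Spo11, Mcl1, Rpl10l, Col6a1, Gjb2, Phlda3, Aldh1a2 and Krt7. Under the alternatives run for them, the totals called for P4 large against small and for D13 against D11 moved by less than 1.5 times. Rescaling moved the split into higher and lower, as given above for the genes tested at P3 against P1.

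The replicate numbers were examined as a possible pairing. Deviations of same-numbered P1 and P3 libraries were correlated across genes at 0.174, 0.168 and -0.058. P1 replicate 3 correlated best with P3 replicate 2 (0.093). P1 replicate 1 with P3 replicate 2 was at -0.209, and P1 replicate 2 with P3 replicate 1 at -0.180. The deviations of the 3 libraries of a group cancel in each gene, so these correlations depend on each other. They do not decide whether same-numbered libraries are paired. With the replicate block 2389 genes were called, 2306 of them among the 2390, and no count of calls moved by over 1.5 times. A count of 3 reads equals 0.153 to 0.21 RPM, which limits statements on genes near 1 RPM.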
